A study of Mus musculus with 7 samples.

Results

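Autophagy, mitophagy and lysosome genes were examined as a set of 34 genes in quadriceps femoris muscle of mice that overexpress a mutant form of Twinkle, the helicase of mitochondrial DNA, and of wild-type mice. The set was a list of named genes grouped by role, and every probe set annotated to exactly 1 of the 34 symbols was taken. Of the 34 genes, 32 were measured, by 82 probe sets, among 18193 genes and 45101 probe sets in all. Optn had no such probe set, and the probe sets of Bnip3l carried a second symbol, so neither is given. The mutant group held 3 mice aged 24, 24 and 21 months and the wild-type group 4 mice aged 26, 24, 21 and 23 months, with 1 single-colour array for each mouse. The series design calls the mutant line a model of progressive external ophthalmoplegia, a mitochondrial muscle disease. The sources used here do not name the promoter of the transgene, the strain or the sex of the mice.

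Autophagy delivers cytoplasm and organelles to lysosomes. A kinase complex around ULK1 and a lipid kinase complex around beclin 1 start a membrane, conjugation enzymes attach small ubiquitin-like proteins to it, receptors bind cargo to these proteins, and lysosomal proteases digest the content. Mitophagy is the branch that removes mitochondria, through receptors on the outer mitochondrial membrane or through the kinase PINK1. In muscle, fasting and denervation are known to induce this pathway at the level of transcripts, and TFEB and FoxO factors drive many of its genes. Array values cover transcripts and not the activity of the pathway.

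Each deposited value is a log2 ratio to the median of that probe set over the 7 arrays, which leaves differences among arrays but no level. A rough level class of each probe set was recovered from the spacing of the numbers, as a range on the log2 scale. In the class from 8 to 16 lay 23 of the 32 members, and the other 9 lay in the class from 4 to 8. The value of a gene is the mean of its probe sets in its highest class. All 10 muscle fibre markers lay in the class from 8 to 16, whereas of the 10 cerebellum markers, a tissue that the free-text descriptions name, 5 lay between 4 and 8 and 5 between 2 and 4. In bulk muscle, fewer cells of a type and less RNA per cell cannot be told apart.

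Some arrays stood apart. The 18S ribosomal RNA controls averaged 3.19 in mutant 1, against -0.77 to 0.56 in the other 6 arrays. In wild-type 3 the 5 prime end of Gapdh minus its 3 prime end came to -0.55 (-0.04 to 0.09 elsewhere), which is a sign of RNA quality, whereas for beta-actin this value was 0.12 (-0.14 to 0.12 elsewhere). Mutant 2, wild-type 1 and wild-type 4 correlated with each other (Pearson's r from 0.44 to 0.55 over 23952 probe sets) and negatively with each of the other 4 arrays (r from -0.51 to -0.18). Among the other 4 arrays r ran from -0.09 to 0.37. Centring each probe set on its median over these same arrays by itself lowers such correlations. Its part in the negative values was not tested. No label names a batch. Twnk, the gene of the transgene, lay at -0.15, 0.44 and 0.00 in mutant and at 0.34, -0.13, -0.14 and 0.15 in wild-type muscle, and the sources used here do not say whether it detects the transgene.

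None of the 32 members differed between mutant and wild-type muscle past the threshold. With limma, 0 of the 32 had an adjusted p under 0.05, as did 0.00% of all 18193 genes. At an unadjusted p under 0.05 there was 1 member, Ctsl, against 1.41% of all genes (0.742% higher and 0.671% lower in mutant), and by the exact permutation test over samples there were 0. No member had all 3 mutant arrays on one side of all 4 wild-type arrays, whereas 0.868% of all genes lay wholly higher and 1.19% wholly lower in mutant muscle. Of the 82 probe sets 0 had an adjusted p under 0.05 and 2, for Ctsl and Nbr1, an unadjusted p under 0.05, both higher in mutant muscle. Among all probe sets 0.00% had the former and 1.98% the latter (1.19% higher and 0.782% lower), with a positive difference in 47.4%. The median log2 difference, mutant minus wild type, was 0.05 over the members, -0.01 over all genes and 0.02 over all genes in the class from 8 to 16. A positive difference was measured in 23 of the 32 (71.9%), against 46.5% of all genes and 57.1% of those in the class from 8 to 16. This count was 17 of 32 without mutant 2, and 18 of 32 without wild-type 3 or without wild-type 4. The 95% interval of the difference lay between -1 and 1 for 31 of the 32 members, so changes beyond 2-fold lay outside it, and between -0.5 and 0.5 for 19. The exception to the first was Rb1cc1, whose interval ran from -0.31 to 1.01.

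**Figure D1:**
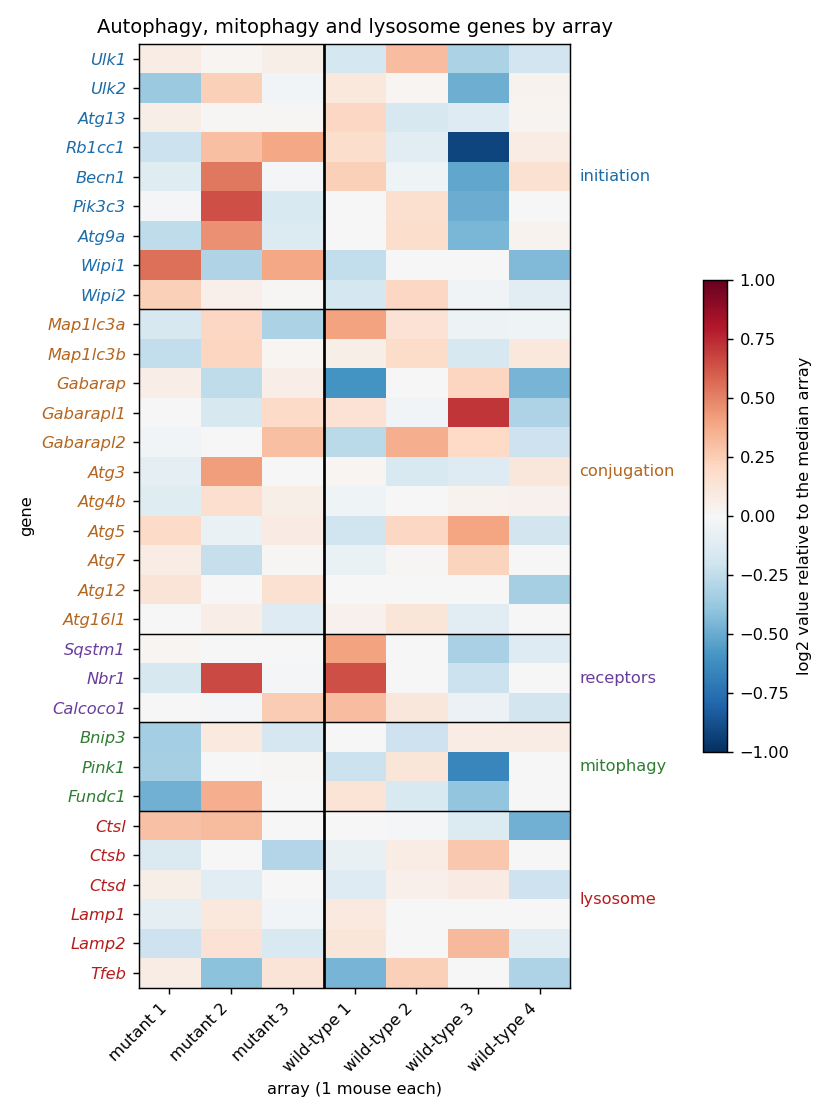
Log2 values relative to the median array of 32 genes (rows, by role) on 7 arrays (columns, 1 mouse each), with the mutant arrays left of the vertical line. Mutant 2 holds the highest value of 12 genes. Wild-type 3 holds the lowest of 9, Rb1cc1 at -0.92 among them, and the highest of 7. The shares of all genes at their extremes in these arrays were not counted. No gene separates the 2 groups. These 2 arrays also had the widest spread over all genes in the classes from 4 up (SD 0.36 and 0.38).

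Initiation genes, which start the autophagosome membrane, had a positive difference in 9 of 9 members (7 of 9 after quantile normalization), and none of the 9 passed the test (limma, 0 at an unadjusted p under 0.05). The median difference was 0.14, from 0.03 for Ulk2 to 0.38 for Wipi1. Over the 9 genes the mutant arrays had medians of -0.01, 0.24 and 0.01, and wild-type 1 to 4 had 0.00, 0.02, -0.46 and 0.03. Mutant 2 was the high array and wild-type 3 the low one, and the other 5 lay between -0.01 and 0.03. Without wild-type 3 the median difference was 0.07 and 7 of the 9 were positive, and without mutant 2 it was 0.05 and 6 were positive.

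Rb1cc1 encodes FIP200, the scaffold of the ULK1 kinase complex. It measured -0.22, 0.30 and 0.39 in mutant and 0.18, -0.11, -0.92 and 0.07 in wild-type muscle. The low value of wild-type 3 stands apart, and the other arrays of the groups overlap. Its log2 difference was 0.35 ± 0.28 (SE) with all arrays and 0.11 without wild-type 3. Its probe sets in the class from 8 to 16 gave 0.72 ± 0.34 and -0.02 ± 0.25, so the gene's value averages a pair that differ.

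Wipi1 encodes a protein that binds the lipid made by the beclin 1 complex. It measured 0.55, -0.30 and 0.39 in mutant and -0.25, 0.00, 0.00 and -0.44 in wild-type muscle, so mutant 1 and 3 lay above every wild-type array and mutant 2 below all but wild-type 4. The difference was 0.38 ± 0.22 (SE), or 1.31-fold (95% interval on the log2 scale from -0.12 to 0.89). This value comes from 1 of the 6 probe sets of Wipi1, the one in the class from 8 to 16. The 5 in the classes from 4 up gave differences from -0.28 to 0.72, and the mean of all 6 gave 0.09. The interval does not cover this disagreement. Wipi2, a relative that recruits the conjugation machinery, measured 0.24, 0.05 and 0.01 in mutant and -0.18, 0.21, -0.03 and -0.11 in wild-type muscle. Its groups overlap, with a difference of 0.13 ± 0.12.

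The other 6 initiation genes showed the same overlap. Ulk1, the kinase that starts autophagy, had a difference of 0.14 ± 0.15 and its relative Ulk2 one of 0.03 ± 0.19. For Atg13, the partner of these kinases, it was 0.04 ± 0.11. Becn1, the gene of beclin 1, differed by 0.17 ± 0.23 and Pik3c3, the lipid kinase it regulates, by 0.25 ± 0.23. Atg9a, which encodes a transmembrane protein of the vesicles that feed the membrane, differed by 0.08 ± 0.21. In 6 of the 9 initiation genes wild-type 3 was the lowest array. This array also had the widest spread over all genes in the classes from 4 up (SD 0.38, against 0.17 to 0.36 elsewhere). The share of all genes lowest in it was not counted.

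**Figure D2:**
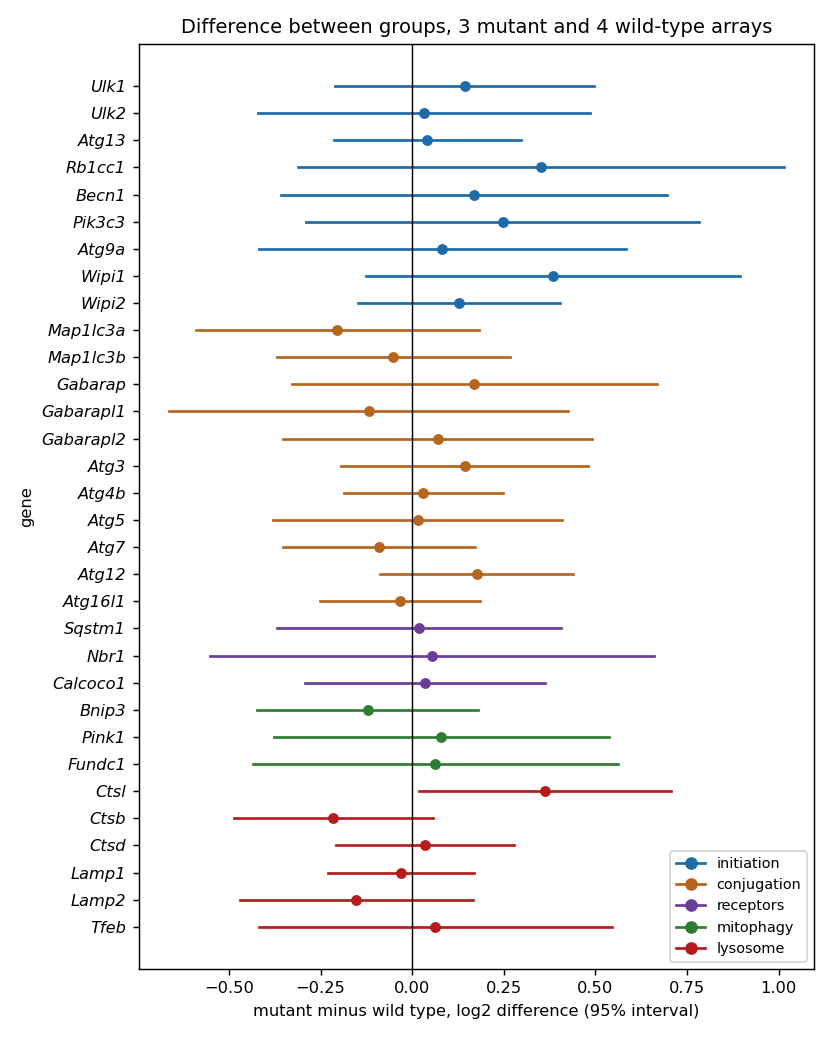
Log2 difference between mutant and wild-type muscle (points, from limma) with its 95% interval (lines) for 32 genes, coloured by role. All 9 initiation genes lie right of 0 (7 after quantile normalization), and the interval of Ctsl, from 0.02 to 0.70, is the only one that leaves 0 out.

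Conjugation genes gave differences in both directions, 6 positive and 5 negative among 11, with a median of 0.01 and none past the test (limma, 0 at an unadjusted p under 0.05). This role holds ubiquitin-like proteins and the enzymes that attach them to lipid. Array medians over the 11 genes ran from 0.00 to 0.06 for mutant and from -0.04 to 0.03 for wild-type muscle.

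Map1lc3b, the gene of the LC3 form used most as a marker of autophagosomes, measured -0.25, 0.21 and 0.02 in mutant and 0.06, 0.19, -0.16 and 0.11 in wild-type muscle. The groups overlap over nearly their whole range, with a difference of -0.05 ± 0.14 and a 95% interval from -0.37 to 0.27. Map1lc3a, another LC3 gene, measured -0.16, 0.21 and -0.32 in mutant and 0.40, 0.14, -0.05 and -0.04 in wild-type muscle. Mutant 1 and 3 were the lowest arrays and mutant 2 the second highest, and the difference was -0.20 ± 0.17.

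Atg12 encodes the ubiquitin-like protein that is joined to ATG5 to direct LC3 attachment. It measured 0.13, 0.00 and 0.15 in mutant and 0.00, 0.00, 0.00 and -0.33 in wild-type muscle. The difference of 0.18 ± 0.11 comes from mutant 1 and 3 above and wild-type 4 below a common value, and another probe set in the class from 4 to 8 gave -0.05. Atg3, the enzyme that transfers LC3 to lipid, measured -0.10, 0.42 and 0.00 in mutant and 0.02, -0.15, -0.13 and 0.12 in wild-type muscle. Mutant 2 was the one array above the wild-type range, and the difference was 0.14 ± 0.14.

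Of the GABARAP genes, Gabarap differed by 0.17 ± 0.21, Gabarapl1 by -0.12 ± 0.23 and Gabarapl2 by 0.07 ± 0.18. Gabarapl1, a FoxO target in muscle, was highest in wild-type 3 at 0.71, against 0.19 in the next array. The protease gene Atg4b, whose product trims LC3 before attachment, differed by 0.03 ± 0.09. Atg7, the activating enzyme of the system, differed by -0.09 ± 0.11, and Atg5 and Atg16l1, which form a complex with ATG12, by 0.01 ± 0.17 and -0.03 ± 0.09.

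Receptor genes, whose products tie cargo to LC3, showed differences near 0 in the 3 measured members, from 0.02 to 0.05, and none passed the test (limma, 0 at an unadjusted p under 0.05). After quantile normalization the value of Nbr1 was -0.02. Sqstm1, the gene of p62, measured 0.02, 0.00 and 0.00 in mutant and 0.41, 0.00, -0.32 and -0.13 in wild-type muscle. The 3 mutant values nearly coincide inside the wild-type range, and the difference was 0.02 ± 0.17 (95% interval from -0.37 to 0.40). Calcoco1, a receptor related to NDP52, measured 0.00, -0.01 and 0.26 in mutant and 0.31, 0.12, -0.06 and -0.19 in wild-type muscle, also overlapping.

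Nbr1, a receptor related to p62, gave different answers from its probe sets. The one in the class from 8 to 16 measured -0.16, 0.66 and -0.02 in mutant and 0.64, 0.00, -0.21 and 0.00 in wild-type muscle, a difference of 0.05 ± 0.26. The one in the class from 4 to 8 measured 0.04, 0.13 and 0.29 in mutant and 0.00, -0.30, -0.31 and -0.21 in wild-type muscle. All 3 mutant arrays of this probe set lay above all 4 wild-type arrays, by 0.36 ± 0.11. It was the single one of the 82 probe sets with no overlap, where 1.06% of all probe sets lay wholly higher and 1.02% wholly lower in mutant muscle. Its adjusted p over 45037 probe sets was 1.00 with limma and its exact permutation p 0.0571.

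Mitophagy genes gave 2 positive differences and 1 negative one in the 3 measured members, with a median of 0.06 and none past the test (limma, 0 at an unadjusted p under 0.05). Bnip3, an outer membrane receptor of mitophagy that hypoxia and FoxO3 induce, measured -0.34, 0.10 and -0.17 in mutant and 0.00, -0.21, 0.07 and 0.07 in wild-type muscle. Its mutant arrays spanned the wild-type range, with a difference of -0.12 ± 0.13. Pink1, the kinase that marks damaged mitochondria, measured -0.33, 0.00 and 0.01 in mutant and -0.22, 0.12, -0.65 and 0.00 in wild-type muscle. Wild-type 3 was again lowest, and the difference was 0.08 ± 0.20 with it and -0.08 without it. Fundc1, a receptor of the outer membrane, measured -0.48, 0.36 and 0.00 in mutant and 0.14, -0.15, -0.39 and 0.00 in wild-type muscle. Both the highest and the lowest of its 7 values were mutant, and the difference was 0.06 ± 0.21. Without wild-type 3 the differences of these 3 genes were all below 0, with a median of -0.08. Without mutant 1 the median was 0.19 and 2 of the 3 were positive. With both of these arrays left out all 3 were positive, with a median of 0.04.

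Lysosome genes gave 3 positive and 3 negative differences with a median of 0.00, and none of the 6 passed the test (limma, 1 at an unadjusted p under 0.05). Ctsl, which encodes the protease cathepsin L and is known to be induced in muscle atrophy, had the smallest p of all members. It measured 0.29, 0.31 and 0.00 in mutant and 0.00, -0.02, -0.13 and -0.48 in wild-type muscle. Mutant 1 and 2 lay above the wild-type arrays, while mutant 3 lay at the top of their range. The difference was 0.36 ± 0.15 (SE), or 1.28-fold, with a limma adjusted p of 1.00 and an exact permutation p of 0.0857. Another Ctsl probe set, in the class from 2 to 4, gave 0.02 ± 0.13.

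Ctsb, the gene of cathepsin B, measured -0.14, 0.00 and -0.29 in mutant and -0.07, 0.08, 0.27 and 0.01 in wild-type muscle. Mutant 1 and 3 were the lowest arrays, and the difference was -0.22 ± 0.12. Its 2 probe sets in the class from 8 to 16 gave -0.27 and -0.16, and the 2 in the class from 4 to 8 gave 0.10 and 0.11. Lamp2, a lysosomal membrane protein needed for fusion with autophagosomes, measured -0.20, 0.15 and -0.15 in mutant and 0.12, 0.00, 0.32 and -0.10 in wild-type muscle. Its difference was -0.15 ± 0.14, or -0.07 without wild-type 3, which was its highest array. Ctsd, the gene of cathepsin D, differed by 0.04 ± 0.10 and Lamp1, another membrane protein, by -0.03 ± 0.09. These were among the narrowest intervals of the set, from -0.21 to 0.28 and from -0.23 to 0.17.

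Tfeb, the transcription factor of lysosome and autophagy genes, measured 0.07, -0.41 and 0.13 in mutant and -0.46, 0.24, 0.00 and -0.31 in wild-type muscle. The 3 lowest of these values were those of mutant 2, wild-type 1 and wild-type 4, the arrays that correlated with each other. Its difference was 0.06 ± 0.21.

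The TFEB protein binds an E-box with the core CACGTG, a palindrome and so the same on both strands. In RefSeq promoter windows of GRCm38.p6, from 250 bases before to 50 after the start site, 7 of the 28 windows of measured members held this core, as did 7.15% of all 32851 windows. The 7 windows belong to 7 of the 25 members with a window. The longer form TCACGTGA was in 2 of the 28 and in 0.974% of all windows. The stretches are shown because TFEB, itself among the members, is known to bind this core, with the core, or the longer form where present, in capitals:
Atg3: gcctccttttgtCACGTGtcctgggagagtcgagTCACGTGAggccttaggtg
Atg5: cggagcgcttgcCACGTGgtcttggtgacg
Atg7: catattggtggtCACGTGtgcagtaagtga
Bnip3: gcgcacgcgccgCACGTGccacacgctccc
Ctsd: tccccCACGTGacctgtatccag
Ctsd: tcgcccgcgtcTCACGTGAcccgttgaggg
Ctsl: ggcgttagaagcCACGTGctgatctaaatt
Lamp1: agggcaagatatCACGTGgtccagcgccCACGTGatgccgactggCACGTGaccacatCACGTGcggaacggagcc

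The Lamp1 stretch, at chr8:13159088-13159163 on the plus strand, holds 4 cores, the first of them 61 bases before the start site. The Atg3 stretch lies at chr16:45158723-45158775 on the plus strand and holds both forms. For Ctsd the stretches are chr7:142388055-142388077 and chr7:142387908-142387937 on the minus strand, and for Ctsl the stretch is chr13:64370739-64370768 on the minus strand. Those of Atg5 and Atg7 are chr10:44268313-44268342 and chr6:114670952-114670981 on the plus strand, and that of Bnip3 is chr7:138909597-138909626 on the minus strand. Base composition was not matched between the members and the other windows, and a match is not a binding site. The 7 genes had log2 differences from -0.12 for Bnip3 to 0.36 for Ctsl, with a median of 0.01 and 4 of them positive.

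Differences along the 3 arrays that correlated with each other were larger than those between genotypes. For 29 of the 32 members (90.6%) the difference between mutant 2, wild-type 1 and wild-type 4 and the other 4 arrays exceeded the difference between mutant and wild type in size, as it did for 69.5% of all genes. The median size was 0.21 against 0.09 over the members, and 0.16 against 0.08 over all genes. All members lay in the classes from 4 up, where it was 0.20 against 0.09 over all genes. In the class from 8 to 16 it was 0.25 against 0.09. The share of 69.5% includes dimmer genes and was not matched for level. The 3 arrays were found from the data, so the larger size is a description and not a test. The 3 arrays minus the other 4 gave -0.56 for Wipi1, -0.53 for Gabarap and -0.51 for Tfeb, and 0.53 for Nbr1, 0.48 for Becn1 and 0.42 for Fundc1. The genotype difference had the same sign within the 3 arrays and within the other 4 for 16 of the members and opposite signs for the other 16. For Ctsl it was 0.55 within the 3 arrays and 0.22 within the 4, and for Rb1cc1 0.17 and 0.60.

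Of the 20 members with several probe sets in the classes from 4 up, 10 had genotype differences of both signs, against 52.7% of all 5022 such genes. For 1 of the 10, Wipi1, differences of both signs exceeded their standard errors. Between the 3 arrays and the other 4, 10 of the 20 had differences of both signs, against 48.4% of all such genes. Ulk1 is an example of the second kind. One of its probe sets measured 0.41, -0.24 and 0.51 in mutant and -0.38, 0.61, 0.00 and -0.38 in wild-type muscle, and the other -0.26, 0.27 and -0.40 in mutant and 0.02, 0.00, -0.64 and 0.00 in wild-type muscle. The 3 arrays minus the other 4 gave -0.72 for the first and 0.42 for the second. The same held for Gabarapl2, at -0.37 and 0.63, and for the probe sets of Map1lc3b, from -0.26 to 0.64. A control probe set for the middle of beta-actin moved with these arrays too, at -0.35, -1.01 and -0.39 in the 3 and between 0.00 and 0.79 in the others, and its part in the result was not tested. Which stretch of each transcript a probe set reads is not given in the files used here.

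**Figure D3:**
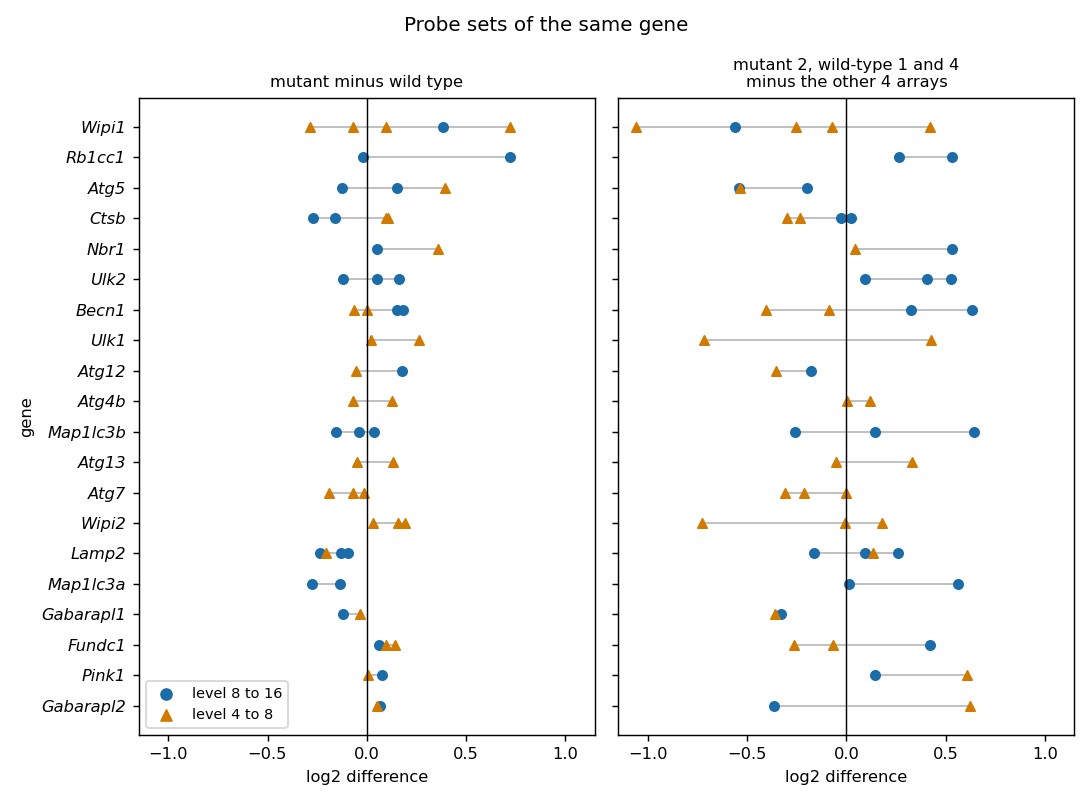
Log2 differences of single probe sets (points, by recovered level class) for the 20 genes with several probe sets in the classes from 4 up. The left panel gives mutant minus wild type and the right panel the 3 arrays that correlated with each other minus the other 4, where the Ulk1 probe sets lie at -0.72 and 0.42.

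Markers of muscle fibres and of other cells stood apart in wild-type 3. The 10 muscle fibre markers averaged -0.63 there, against -0.06 to 0.11 in the other 6 arrays. The 12 macrophage markers averaged 0.86, against -0.53 to 0.29, the 8 fibroblast markers 1.03, against -0.30 to 0.83, and the 6 measured adipocyte markers 1.19, against -0.89 to 0.56. The macrophage means of the mutant arrays, from -0.07 to 0.29, lay inside the wild-type range of -0.53 to 0.86. In wild-type 3 the initiation genes were low (mean -0.37, against -0.05 to 0.22 elsewhere). Gabarapl1, Ctsb and Lamp2 were among the 7 members at their highest there, against 9 at their lowest. Slow fibre markers, 10 genes, averaged -2.89 in wild-type 1 and -2.21 in wild-type 2, and from -0.22 to 0.75 in the other 5 arrays. Wild-type 3 held the 0.75, the highest mean, so the slow fibre list and the muscle fibre list went opposite ways there. The muscle fibre list includes the fast fibre genes Myh4, Myh1 and Tnnt3. A low mean of this list therefore cannot tell fewer fibres from another mix of fibre types. Between genotypes, 6 of 6 endothelial markers had a positive difference (median 0.23) and 6 of 6 measured adipocyte markers a negative one (median -0.26). Of the 10 slow fibre markers 8 were positive (median 1.30), with wild-type 1 and 2 the low arrays. Of the 10 muscle fibre markers 9 were positive (median 0.04). None of these passed the test (limma, 0 at an unadjusted p under 0.05 in each list). The endothelial means were -0.09, -0.30 and -0.42 in mutant 2, wild-type 1 and wild-type 4, and from 0.10 to 0.23 in the other 4 arrays. The part of these markers in the results was not tested.

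**Figure D4:**
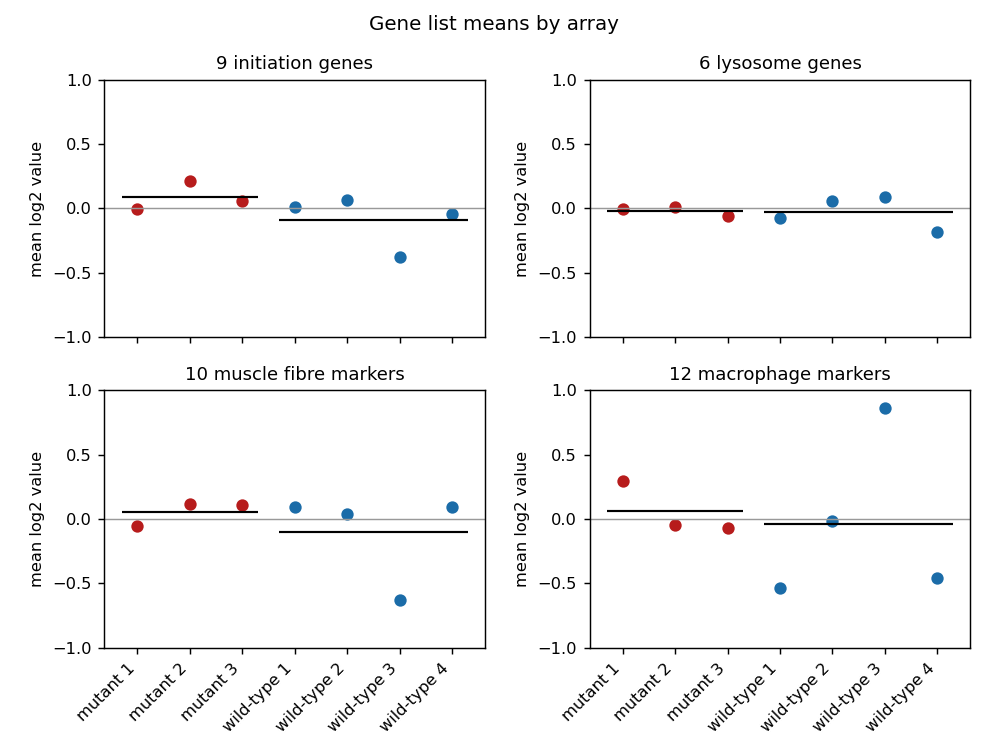
Mean log2 value of 4 gene lists (panels) on each array, with mutant arrays in red, wild-type arrays in blue and a black line at each group's mean. In wild-type 3 the initiation genes (-0.37) and muscle fibre markers (-0.63) are at their lowest and the macrophage markers (0.86) at their highest.

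Further genes of the pathway were taken from lists set by function. Of 30 other autophagy genes 0 passed the test in either direction (limma, 1 at an unadjusted p under 0.05), with a median difference of 0.03 (-0.02 after quantile normalization, -0.04 without mutant 2 and -0.01 without wild-type 3). The smallest p was that of Snap29, a SNARE protein of autophagosome fusion, at 0.30 ± 0.10. It measured 0.23, 0.13 and 0.00 in mutant and -0.24, -0.29, -0.20 and 0.00 in wild-type muscle, so wild-type 4 alone reached the mutant range. Next were Ambra1, a regulator of beclin 1, at 0.17 ± 0.13, and Zfyve1, a marker of the membrane where autophagosomes form, at 0.17 ± 0.16.

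Other mitophagy genes numbered 13 measured of 14, and 0 passed (limma, 0 at an unadjusted p under 0.05), with a median of 0.06 (-0.0043 after quantile normalization and -0.02 without mutant 2). Csnk2a1, a kinase that acts on FUNDC1, differed by 0.32 ± 0.15, and the receptors Bcl2l13 and Fkbp8 by 0.14 ± 0.11 and 0.17 ± 0.17. Among other lysosome genes 36 of 42 were measured and 0 passed (limma, 1 at an unadjusted p under 0.05), with 18 positive and 18 negative differences and a median of 0.00. Npc1, a cholesterol transporter of the lysosome, had the smallest p at 0.41 ± 0.13, from the lowest class. It measured 0.41, 0.23 and 0.00 in mutant and 0.00, -0.22, -0.37 and -0.20 in wild-type muscle. The hydrolases Hexa and Ctsz differed by -0.17 ± 0.17 and -0.17 ± 0.20, and both were highest in wild-type 3, at 0.58 and 0.65.

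Upstream regulators, such as the mTOR, AMPK and FoxO genes, were measured in 21 of 21, and 0 passed (limma, 0 at an unadjusted p under 0.05), with a median of 0.07 and 14 positive. For 2 of the 21 the lowest mutant array exceeded the highest wild-type array, as for 0.868% of all genes. These were Zkscan3, a repressor of autophagy genes, at 0.19 ± 0.10, and Sesn2, a stress-induced inhibitor of mTORC1 signalling, at 0.15 ± 0.09. The gap between the groups was small in both. Zkscan3 had its lowest mutant array at 0.04 and its highest wild-type array at 0.01, and for Sesn2 these 2 arrays both lay at -0.02. Tsc2, another inhibitor of mTORC1 signalling, differed by 0.22 ± 0.13, with the groups overlapping.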

How the data were processed

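Total RNA of quadriceps muscle from 3 mutant Twinkle and 4 wild-type mice was hybridised to 1 Affymetrix array each. The authors deposited log2 values centred by probe set, with a median over arrays of exactly 0 in all 45101. The log base is read from the spacing of the numbers, and GCOS 4.0 is named in the submitters' processing notes. Summary, scaling and centring steps are not given in the sources used here. In 34 of the 82 member probe sets 2 or more arrays had exactly the median value.

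Level classes came from the likelihood of the spacing of single-precision numbers, over values of at least 0.01 in size, and 245 probe sets stayed unresolved. Symbols of the platform annotation were updated by Entrez identifier with RefSeq (GRCm38.p6). Of 34958 probe sets with 1 symbol 34754 matched, 932 had several symbols and 9211 none. No test included the 64 control probe sets.

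The test was limma's lmFit and eBayes (limma 3.58.1, R 4.3.3), two-sided, for 18193 genes and 45037 probe sets, with no covariate and Benjamini-Hochberg adjustment over each whole table, threshold 0.05. The ± values are standard errors of limma. The exact two-sided permutation test used the 35 splits of 7 arrays, with a smallest p of 0.0286. Named members are the 3 with the smallest p of each role, those with a gene value or a probe set in a class from 4 up without overlap between groups, and Map1lc3b, Sqstm1, Tfeb, Pink1, Bnip3 and Ctsl. Of each pathway list the 3 genes with the smallest p are named, and Sesn2 is 1 of these. Other members are given by their difference, and the further values of Ulk1, Gabarapl1 and Gabarapl2, and the genes named for the 3 arrays, were chosen after they were seen. Alternatives were quantile normalization, all probe sets of a gene, a filter on dim genes, a robust variance trend, age, a replicate block, each array left out and, chosen after seeing the data, a block of 3 arrays and the removal of 2 arrays together. Members, roles and lists were chosen with earlier results of these data known. The labels call the arrays biological replicates. The number of arrays limits the precision.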

Additional observations from a re-analysis of the deposited data

Results flagged for a closer look

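In 23 quantities, the 17 named genes and 6 medians over the members or a role, the wild-type group was searched for an array far from the other 3 by Dixon's test, and 3 were found. Chance gives about 1 in 20 for independent normal values. The values here are centred on the median of each probe set and often tie there, and the members include the initiation genes. The count of 3 therefore cannot be set against that rate. Atg12 lay at -0.33 in wild-type 4 and at exactly 0.00 in the other 3, a tie that makes the test exceed its limit at any distance. The median over the members lay at -0.055 in wild-type 3, against -0.00 to 0.01 in the other 3. The median over the initiation genes lay at -0.46 in wild-type 3. That array also had low muscle fibre markers and the low Gapdh 5 prime value. Its slow fibre mean was the highest, at 0.75, but wild-type 4 was near it at 0.51. On that list wild-type 1 and 2 stood apart, at -2.89 and -2.21. The part of these traits was not tested.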

How the results depend on the processing

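No member passed the threshold at gene level under any of the 15 alternatives, or at probe set level under quantile normalization or the replicate block. Genes at an unadjusted p under 0.05 numbered 257 of 18193 in the reported analysis, 101 with the replicate block, 143 without the lowest class, 899 with the 3 arrays as a block, 527 without mutant 1, 583 without mutant 2 and 463 without mutant 1 and wild-type 3. The block of 3 arrays and the removal of a pair of arrays were chosen after seeing the data. Deviations of same-numbered arrays from their group means had r of -0.52, -0.36 and 0.16 for numbers 1 to 3. Numbers 1 and 2 each set one of the 3 arrays that correlated together against one of the others. These values therefore cannot decide whether the numbers pair the mice. With the replicate block the conjugation median was -0.032, Calcoco1 -0.042 and Sqstm1 -0.021. With all probe sets averaged the conjugation median was -0.031 and Atg3 -0.040, and with quantile normalization Nbr1 was -0.021. With the 3 arrays as a block the conjugation median was -0.023 and Tfeb -0.021. Without mutant 1 and wild-type 3 the conjugation median was 0.082, Sqstm1 -0.090, Bnip3 0.010 and Map1lc3b 0.00010. The cause of these shifts was not tested.

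Leaving out each array in turn gave member medians from 0.0028 (without mutant 2) to 0.092 (without mutant 1), and 0.0067 without wild-type 3. The initiation median ran from 0.05 to 0.22, that of conjugation from -0.032 (without wild-type 4) to 0.076 (without wild-type 3), receptors from -0.05 to 0.16, mitophagy from -0.14 to 0.19, lysosome from -0.03 to 0.02 and other mitophagy genes from -0.022 to 0.12. Genes whose sign turned ranged from -0.013 to 0.25 (Atg3), -0.051 to 0.12 (Calcoco1), -0.20 to 0.23 (Nbr1), -0.084 to 0.16 (Sqstm1), -0.075 to 0.19 (Pink1), -0.14 to 0.28 (Fundc1), -0.16 to 0.069 (Map1lc3b) and -0.047 to 0.23 (Tfeb). Of the 16 alternatives for a named gene, 3 cannot change its difference and 1, the replicate block, repeats the removal of wild-type 4. Under the other 12 the sign held for 8 of the 17 named genes, over ranges from 0.086 to 0.22 (Atg12), -0.29 to -0.057 (Ctsb), 0.19 to 0.46 (Ctsl), -0.26 to -0.0060 (Lamp2), -0.35 to -0.091 (Map1lc3a), 0.11 to 0.54 (Rb1cc1), 0.092 to 0.64 (Wipi1) and 0.057 to 0.21 (Wipi2). These 8 genes were named for being among the 3 of their role with the smallest p on the same arrays. The alternatives reuse most of those arrays, so a kept sign is no independent support. Signal over background is not given in the deposited values, and 7 arrays limit the precision.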
